A study of Mus musculus with 2 samples.

Results

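The respiratory chain genes described here were the 100 genes, of 18318 listed for both libraries, whose symbols begin with Nduf, Uqcr, Atp5 or Cox4 to Cox8, together with Sdha, Sdhb, Sdhc, Sdhd and the protein genes of the mitochondrial genome. The rule uses names and no measured value. By role, 75 are nuclear genes for subunits of complexes I to V and 13 are mitochondrially encoded subunits, while 8 encode complex I assembly factors, 2 are tissue isoforms of complex IV subunits and 2 are related proteins. The rule matched 102 columns of the file of LatY136F mice and 100 of that of LatY136FCD45-KO mice, the double mutant, for which CD45-KO stands in the text and the plots. Cox6a2 and Ndufa4l2 were listed for LatY136F only and were not analysed here.

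The respiratory chain sits in the inner mitochondrial membrane. Complex I oxidises NADH and complex II oxidises succinate, both pass electrons to coenzyme Q, complex III carries them on to cytochrome c, and complex IV hands them to oxygen. Complexes I, III and IV pump protons, and complex V, the ATP synthase, makes ATP from the returning protons. The catalytic membrane cores are partly encoded by mitochondrial DNA and the remaining subunits by nuclear genes, so that every complex except complex II joins products of both genomes. Activated T cells are known to build new mitochondria and raise respiration alongside glycolysis.

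The study compared splenic T cells of 8 to 9 week old mice in a pair of single-cell libraries made on the BD Rhapsody whole transcriptome platform, which counts unique molecular identifiers (UMIs). LatY136F mice have a mutated form of LAT, an adaptor of T cell receptor signalling, and are known for an expansion of type 2 helper-like T cells. LatY136FCD45-KO mice carry the same Lat mutation and in addition lack CD45, the phosphatase encoded by Ptprc that acts on Src family kinases. Cells were sorted as CD3+CD5+, and each genotype gave 1 library. The number of mice per library was not stated in the labels, so no value has a replicate error, every interval below covers counting error only, and no difference was tested.

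After filters on genes detected and on the mitochondrial share, 13747 cells of LatY136F and 12834 of CD45-KO remained. Clustering without the respiratory chain genes placed 13714 and 12718 of them in 9 T-like clusters, with 35124797 and 28522051 UMIs. Median depth was 2154 and 1986 UMIs per T-like cell, and 223 cell labels occurred in both libraries; without those cells the log2 ratios of the nuclear and mitochondrial sums given further on were still -0.22 and 0.14. Ptprc stood at 1760 and 1183 CPM (UMIs per 1000000 UMIs of T-like cells). Which part of the gene is deleted was not stated in the labels, so this level is no check of them. The 8 T cell check markers were all detected and summed to 8812 CPM in LatY136F and 7253 CPM in CD45-KO. Markers of B and plasma cells summed to 213 and 279 CPM, of myeloid cells to 180 and 152 CPM, and of erythroid cells and platelets to 1.74 and 0.386 CPM. Ms4a1 and Ncr1 were at 0 in LatY136F, and C1qa and S100a8 were at 0 in CD45-KO. The part of these markers in the results was not tested.

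Nuclear and mitochondrially encoded subunits differed in opposite directions between the libraries. The 75 nuclear subunit genes made up 1.01% of the UMIs of T-like cells in LatY136F and 0.871% in CD45-KO, a level 14.2% lower (interval -14.6 to -13.7%) and a log2 ratio of -0.22. The 13 mitochondrially encoded genes made up 8.59% and 9.49%, a level 10.4% higher in CD45-KO (interval 10.2 to 10.6%) and a log2 ratio of 0.14. Of the nuclear subunits 72 of 75 had a log2 ratio of CD45-KO over LatY136F below 0, against 47% of the 12695 genes with at least 20 UMIs over both libraries and 48% of the 6664 with at least 20 CPM. A level lower by 1.2-fold or more was found for 28 of the 75, against 20.9% of all genes and 15.1% of those with at least 20 CPM, and none was higher by 1.2-fold, against 22.2% and 14.3%. No nuclear subunit reached 1.5-fold in either direction, against 9.24% of all genes lower and 7.85% higher (3.78% and 1.88% of those with at least 20 CPM). The median log2 ratio of the nuclear subunits was -0.21, with a range of -0.58 to 0.10, beside a median of 0.02 over all genes. Over summed cells, a change in the mix of T cell states and a change of RNA within cells cannot be told apart. With the mix of clusters held equal between the libraries, the nuclear log2 ratio was -0.09, beside a median of 0.008 over all genes. The mitochondrial log2 ratio was then 0.07. Lower by 1.2-fold were then 6 of the 75, a share below the 20.9% of all genes before the mix was held equal. The share of all genes with the mix held equal was not counted.

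**Figure D1:**
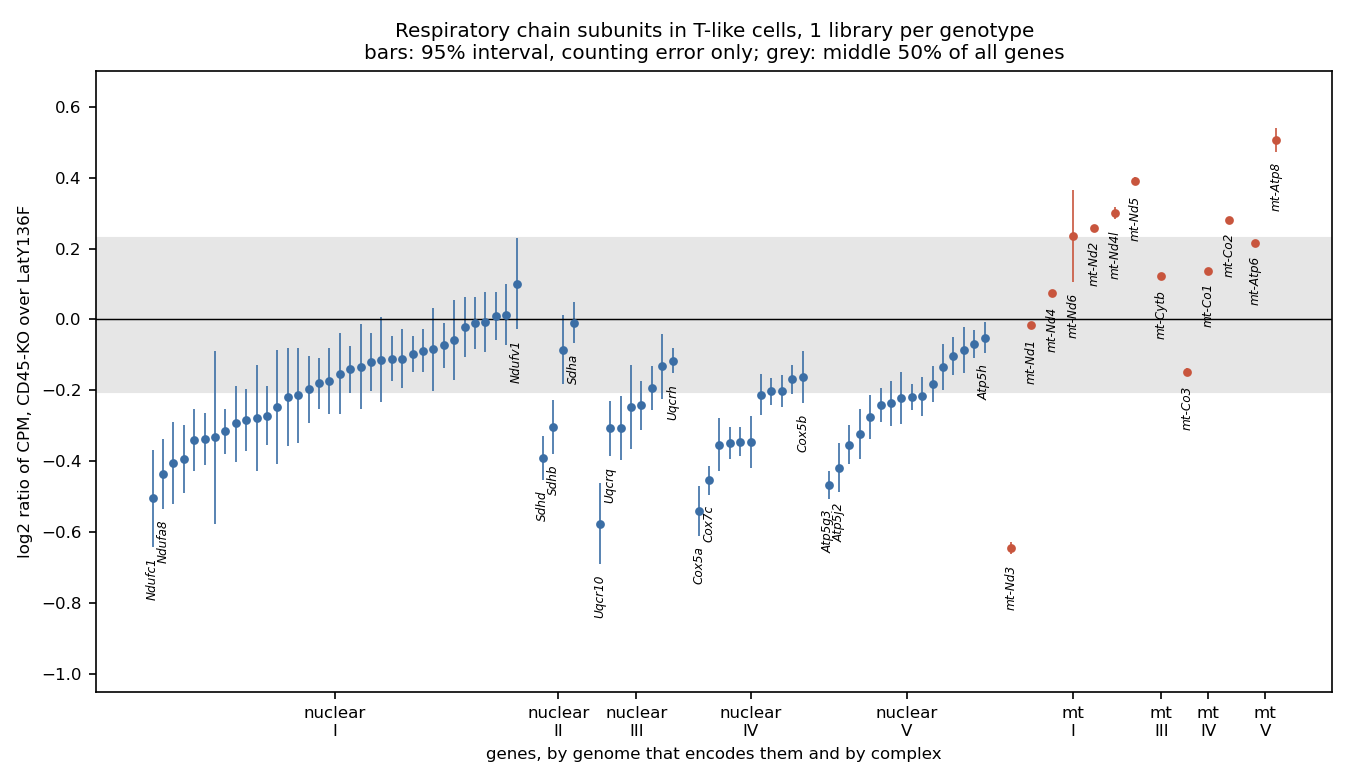
Each point is a subunit gene in T-like cells, placed by the genome that encodes it and by complex, and the vertical axis is the log2 ratio of CPM, CD45-KO over LatY136F, with its 95% interval for counting error; the grey band holds the middle 50% of all genes. Nuclear subunits lie almost entirely below 0, with Uqcr10 lowest at -0.58, while 10 of the 13 mitochondrially encoded genes lie above 0 and mt-Nd3 lies at -0.64.

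Complex I, the NADH dehydrogenase, had 36 nuclear subunit genes, which summed to 2659 CPM in LatY136F and 2379 CPM in CD45-KO, a log2 ratio of -0.16. Below 0 were 33 of 36, against 47% of all genes, and 12 of 36 were lower by 1.2-fold, against 20.9%. The 7 nuclear core subunits, which hold the flavin and most iron-sulfur clusters, had a summed log2 ratio of -0.12, and the 29 supernumerary subunits, which surround the core, one of -0.17. Their intervals overlapped, at -0.16 to -0.08 and -0.18 to -0.15. The lowest were supernumerary. Ndufc1, a membrane-arm subunit on chr3:51404677-51408988, stood at 34.0 CPM in LatY136F and 24.0 CPM in CD45-KO (log2 ratio -0.50, interval -0.64 to -0.37). Ndufa8, on chr2:36036326-36049406, stood at 63.3 and 46.8 CPM (log2 ratio -0.44). Ndufb8, a membrane-arm subunit, had a log2 ratio of -0.41 and Ndufa9, near the coenzyme Q site, one of -0.39. At the other end, 3 of the 36 were above 0, the supernumerary subunit Ndufa6, at 0.01, and a pair of core subunits of the NADH-oxidising module. Ndufv1, which binds the flavin, stood at 30.5 and 32.7 CPM with an interval that spans 0 (log2 ratio 0.10, interval -0.03 to 0.23). Ndufv2, which carries an iron-sulfur cluster beside it, stood at 111 and 111 CPM (log2 ratio 0.01, interval -0.06 to 0.08). Ndufb4, a supernumerary subunit, had a log2 ratio of -0.06 with an interval of -0.17 to 0.06. With the mix of clusters held equal, Ndufc1 had a log2 ratio of -0.39 and Ndufa8 one of -0.24. Ndufv2 was then at 0.16, Ndufa6 at 0.07 and Ndufv1 at 0.06. Other subunits were then also above 0, among them the supernumerary Ndufab1 at 0.16 and Ndufb10 at 0.11. The core subunit Ndufs1 was at -0.17 over all T-like cells and at -0.23 with the mix held equal.

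Complex II, succinate dehydrogenase, is wholly nuclear, and over all T-like cells its 4 genes did not move as a unit. The membrane anchor Sdhd stood at 157 CPM in LatY136F and 120 CPM in CD45-KO (log2 ratio -0.39, interval -0.45 to -0.33), and the iron-sulfur subunit Sdhb at 103 and 83.1 CPM (log2 ratio -0.30). The other anchor, Sdhc, stood at 56.8 and 53.5 CPM with an interval of -0.18 to 0.01. The flavoprotein Sdha, which oxidises succinate, stood at 154 and 153 CPM (log2 ratio -0.01, interval -0.07 to 0.05). Thus 2 of the 4 were lower by 1.2-fold, against 20.9% of all genes, and the catalytic flavoprotein differed by less than its counting error. Sdhd had a log2 ratio of -0.26, Sdhc one of -0.12, Sdhb one of -0.09 and Sdha one of -0.08 once the mix of clusters was held equal.

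Complex III, the cytochrome bc1 complex, had 8 nuclear members, all below 0, against 47% of all genes, with a summed log2 ratio of -0.20. Uqcr10, a small supernumerary subunit on chr11:4701973-4704342, had the lowest log2 ratio of all nuclear subunits. It stood at 51.0 CPM in LatY136F and 34.2 CPM in CD45-KO (log2 ratio -0.58, interval -0.69 to -0.46). Uqcrq, another small subunit, and Uqcrfs1, the Rieske iron-sulfur protein that passes electrons towards cytochrome c, both had a log2 ratio of -0.31, and Uqcrb had one of -0.24. Uqcrh, which lies beside the cytochrome c docking face, stood at 417 and 385 CPM (log2 ratio -0.12), and Uqcrc1, a large matrix-side subunit, had a log2 ratio of -0.13. With the mix of clusters held equal, Uqcr10 had a log2 ratio of -0.39, Uqcrq one of -0.18, Uqcrb one of -0.14, Uqcrc1 one of -0.04, Uqcrfs1 one of -0.03 and Uqcrh one of -0.02.

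Complex IV, cytochrome c oxidase, had the lowest nuclear log2 ratio of the 5 complexes over all T-like cells. Its 11 nuclear subunits summed to 2657 CPM in LatY136F and 2168 CPM in CD45-KO, a level 18.4% lower (interval -19.2 to -17.5%) and a log2 ratio of -0.29. Lower by 1.2-fold were 6 of 11, against 20.9% of all genes. Cox5a, which faces the matrix and is known to bind a thyroid hormone metabolite, lies on chr9:57521274-57532426 and stood at 128 and 88.0 CPM (log2 ratio -0.54, interval -0.61 to -0.47). Cox7c, a short membrane-spanning subunit, stood at 385 and 281 CPM (log2 ratio -0.45). Of the other small subunits, Cox6b1, which joins the 2 monomers, Cox6c and Cox7b were at -0.35 and Cox7a2 at -0.34. Cox4i1, the regulatory subunit that binds ATP, and Cox6a1 were both at -0.20, Ndufa4, now assigned to complex IV, at -0.21, Cox8a at -0.17 and Cox5b, which binds zinc, at -0.16. Interval bounds of Cox5a and Cox5b, -0.61 to -0.47 and -0.24 to -0.09, did not meet. With the mix of clusters held equal, Cox5a and Cox7c both had a log2 ratio of -0.28, Cox8a one of -0.02 and Cox5b one of 0.04. Cox6c was then at -0.21, Cox7b at -0.19, Cox6b1 at -0.17, Cox7a2 at -0.14, Cox6a1 at -0.07, Ndufa4 at -0.06 and Cox4i1 at -0.02.

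Complex V, the ATP synthase, had 16 nuclear members, all below 0, against 47% of all genes, with a summed log2 ratio of -0.22. Lower by 1.2-fold were 5 of 16, against 20.9% of all genes. By module, the catalytic F1 head had a summed log2 ratio of -0.18 (interval -0.20 to -0.16), the stator that holds it one of -0.17 (-0.19 to -0.14), the proton-carrying c ring one of -0.27 (-0.30 to -0.25) and the small membrane subunits one of -0.29 (-0.32 to -0.26). Summed over their nuclear genes, the c ring and the small membrane subunits were therefore lower than the head and the stator beyond counting error. Single genes did not all follow, since Atp5g2 of the c ring, at -0.07, lay above the F1 genes, at -0.22 to -0.10. The mitochondrially encoded membrane subunits mt-Atp6 and mt-Atp8 were higher in CD45-KO, at 0.22 and 0.51. Module sums were not taken with the mix of clusters held equal. Atp5j2, a membrane subunit at the dimer interface, stood at 125 CPM in LatY136F and 93.5 CPM in CD45-KO (log2 ratio -0.42), Atp5mpl, a small proteolipid, at 118 and 94.4 CPM (log2 ratio -0.32), and Atp5o, which links head and stator, at 194 and 152 CPM (log2 ratio -0.35). The stator subunit Atp5h stood at 269 and 260 CPM (log2 ratio -0.05). Atp5j2 stood at -0.29 and Atp5o at -0.12 on the same log2 scale with the mix of clusters held equal.

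The c ring is built from a single mature protein encoded by 3 genes, and these differed from each other. Atp5g3 stood at 400 CPM in LatY136F and 289 CPM in CD45-KO (log2 ratio -0.47, interval -0.51 to -0.43), Atp5g1 at 151 and 125 CPM (log2 ratio -0.27) and Atp5g2 at 336 and 320 CPM (log2 ratio -0.07, interval -0.11 to -0.03). Of the c ring UMIs in LatY136F, Atp5g3 gave 45.1% (exact Clopper-Pearson interval 44.6 to 45.7%) and Atp5g2 37.9% (37.3 to 38.4%). In CD45-KO the share of Atp5g3 was lower and that of Atp5g2 higher, with 39.4% from Atp5g3 (38.7 to 40.1%) and 43.6% from Atp5g2 (43.0 to 44.3%), while Atp5g1 stayed at 17.0% and 17.0%. Within the 8 T-like clusters that held at least 100 cells of both libraries, Atp5g3 was lower in CD45-KO in all 8, with intervals below 0 in all 8 and log2 ratios of -0.39 to -0.15. Atp5g2 was below 0 in 4 of the 8, with log2 ratios of -0.13 to 0.28. The log2 ratio of Atp5g3 was -0.25 with the mix of clusters held equal. These genes share coding sequence, and the authors' counting may have split reads between them.

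Promoter letters of the nuclear subunits are shown because these genes differed in the same direction and because such promoters are known for sites of ETS factors such as GABP, of NRF1 and of YY1. RefSeq windows on GRCm38.p6, from 250 bases before to 50 bases after each start, were matched for 63 of the 75 genes, with 68 windows. The ETS core CCGGAAG occurred on either strand in 23.5% of these windows, against 8.86% of all 32851 windows of the table, the NRF1 core GCGCATGC in 14.7% against 2.71%, and the YY1 core AAGATGGCG in 10.3% against 1.40%. Any of the 3 occurred in 39.7% against 12.1%. No window held the ETS and YY1 letters run together over their shared bases, and hits of NRF1 letters that overlap on opposite strands count as 1 window. Printed 5′ to 3′ on the gene's strand are 130 bases (120 before and 10 after the start) for the lowest matched member with an ETS or NRF1 hit in complexes I, II and IV, and for the lowest members of complexes III, IV and V, which had no hit in the full window. Capitals mark the GCGCATGC core in Ndufa8 and the CCGGAAG core in Sdhd and Cox6b1, each read on the opposite strand. The windows are chr2:36049329-36049458 on the minus strand for Ndufa8, chr9:50603840-50603969 minus for Sdhd, chr7:30626105-30626234 minus for Cox6b1, chr11:4704335-4704464 minus for Uqcr10, chr9:57521112-57521241 plus for Cox5a and chr2:73911317-73911446 minus for Atp5g3.
Ndufa8: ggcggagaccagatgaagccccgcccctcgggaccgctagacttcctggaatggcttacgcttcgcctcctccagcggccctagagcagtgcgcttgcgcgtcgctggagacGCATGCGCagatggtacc
Sdhd: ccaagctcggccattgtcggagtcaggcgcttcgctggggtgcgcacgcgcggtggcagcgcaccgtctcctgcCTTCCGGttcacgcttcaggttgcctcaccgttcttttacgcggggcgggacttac
Cox6b1: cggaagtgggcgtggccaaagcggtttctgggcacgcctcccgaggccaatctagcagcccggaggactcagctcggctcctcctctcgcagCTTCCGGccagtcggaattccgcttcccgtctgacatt
Uqcr10: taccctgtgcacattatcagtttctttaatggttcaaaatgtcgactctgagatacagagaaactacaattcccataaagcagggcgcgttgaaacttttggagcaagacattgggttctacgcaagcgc
Cox5a: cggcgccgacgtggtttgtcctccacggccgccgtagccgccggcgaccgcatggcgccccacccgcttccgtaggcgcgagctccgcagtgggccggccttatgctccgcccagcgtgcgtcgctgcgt
Atp5g3: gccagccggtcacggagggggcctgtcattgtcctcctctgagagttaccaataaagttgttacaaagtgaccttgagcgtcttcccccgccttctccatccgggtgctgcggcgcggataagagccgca
The hit began 8 bases before the start in Ndufa8, 46 before in Sdhd and 28 before in Cox6b1. Members with and without the ETS or the NRF1 core differed little in their medians, and the few with the YY1 core stood lower. The median log2 ratio was -0.22 for the 16 genes with the ETS core and -0.21 for the 47 without, -0.24 for the 10 with the NRF1 core and -0.20 for the 53 without, and -0.34 for the 7 with the YY1 core and -0.20 for the 56 without. The lowest members of complexes III, IV and V, Uqcr10, Cox5a and Atp5g3, held none of these letters in the window. A match describes letters only, and a window without a match says nothing of a factor.

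The mitochondrially encoded genes did not differ uniformly, although all but mt-Nd6 are known to be cut from a shared long transcript. Highest in CD45-KO relative to LatY136F was mt-Atp8, a small subunit of complex V, at 397 CPM in LatY136F and 564 CPM in CD45-KO (log2 ratio 0.51, interval 0.47 to 0.54). The complex I subunit mt-Nd5 stood at 3468 and 4545 CPM (log2 ratio 0.39), and mt-Co2, which accepts electrons from cytochrome c, at 11739 and 14260 CPM (log2 ratio 0.28). Between 0.22 and 0.30 lay also mt-Nd4l at a log2 ratio of 0.30, mt-Nd2 at 0.26, mt-Nd6 at 0.23 and mt-Atp6, which forms the proton channel, at 0.22. Counts of mt-Nd6 were low, at 992 UMIs in LatY136F and 948 in CD45-KO, with an interval of 0.11 to 0.36. Over the 8 clusters with at least 100 cells of both libraries it ranged from -0.67 to 0.40, and every interval spanned 0. The log2 ratio of mt-Nd2 was 0.10 and that of mt-Atp6 0.13 with the mix of clusters held equal.

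Closer to 0 were mt-Co1, the oxygen-reducing subunit of complex IV, at 24737 CPM in LatY136F and 27203 CPM in CD45-KO (log2 ratio 0.14), mt-Cytb of complex III at 7638 and 8310 CPM (log2 ratio 0.12), and mt-Nd4 at a log2 ratio of 0.07 (-0.02 with the mix of clusters held equal). Lower in CD45-KO were 3 of the 13. The complex I subunit mt-Nd1 stood at 6493 and 6418 CPM (log2 ratio -0.02), mt-Co3, the remaining core subunit of complex IV, at 4923 and 4447 CPM (log2 ratio -0.15), and mt-Nd3, a small membrane subunit of complex I, at 2325 and 1487 CPM (log2 ratio -0.64, interval -0.66 to -0.63). Thus 4 of 13 were higher and 1 was lower by 1.2-fold, against 22.2% and 20.9% of all genes. Only mt-Nd3 was lower by 1.5-fold, against 9.24% of all genes. On the log2 scale mt-Co1 was at 0.09, mt-Cytb at 0.07 and mt-Nd1 at -0.10 with the mix of clusters held equal, and mt-Nd3 at -0.72.

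The lower genes mt-Co3 (chrM:8607-9390) and mt-Nd3 (chrM:9459-9806) are neighbours on the mitochondrial genome of GRCm38. On one side of the pair lie mt-Atp8 (chrM:7766-7969) and mt-Atp6 (chrM:7927-8607), and on the other mt-Nd4l (chrM:9877-10173), all higher in CD45-KO. Within the 8 clusters with at least 100 cells of both libraries, mt-Nd3 was lower in all 8, with log2 ratios of -0.79 to -0.60, and mt-Co3 in all 8, with -0.32 to -0.16. In the same 8 clusters mt-Atp8 was higher in all, with 0.33 to 0.54, as were mt-Nd4l, with 0.08 to 0.26, and mt-Nd5, with 0.13 to 0.36. For mt-Nd1 the log2 ratio was below 0 in 7 of 8, with a range of -0.22 to 0.03, and for mt-Nd4 in 3 of 8. The summed log2 ratio of the 13 genes stayed between 0.12 and 0.16 when any 1 of them was left out. Pairs of these genes overlap, mt-Atp8 with mt-Atp6, mt-Nd4l with mt-Nd4, and mt-Nd6 on the opposite strand with mt-Nd5, so reads of shared bases cannot be told apart. With cells limited to at most 10% mitochondrial counts, a filter on the measured quantity itself, the mitochondrial log2 ratio was 0.06.

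**Figure D2:**
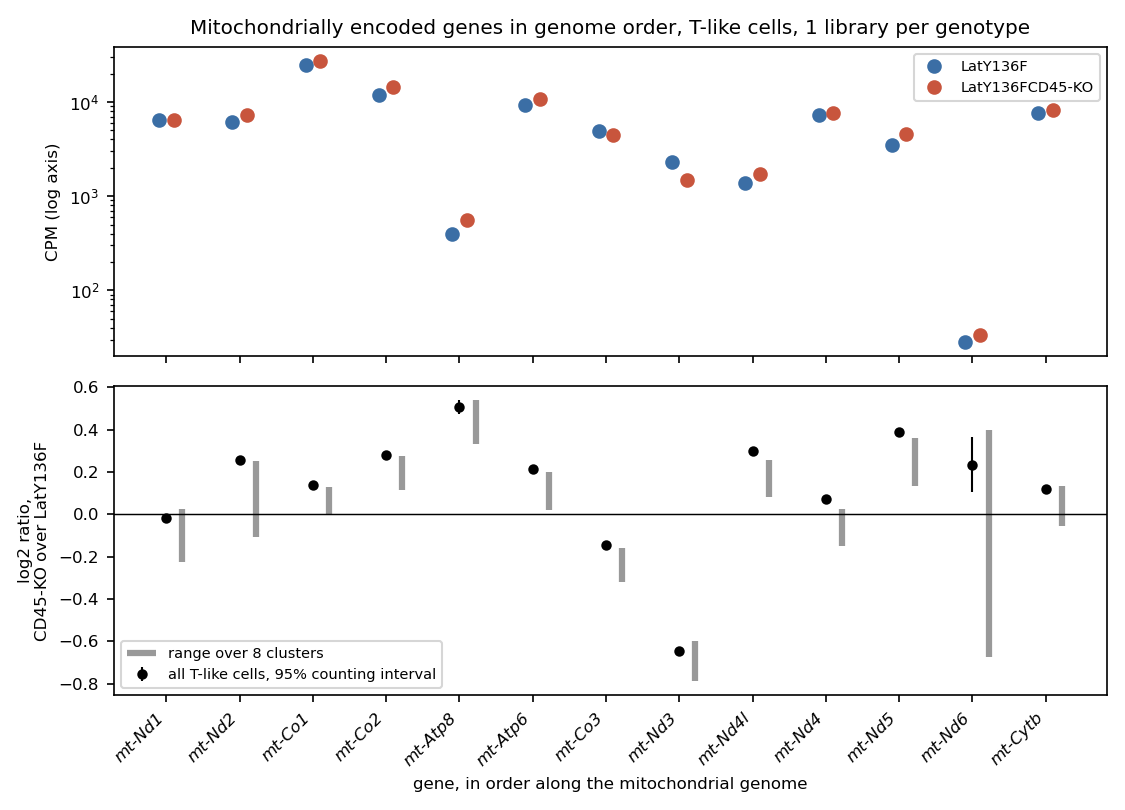
The upper panel gives CPM on a log axis for the 13 mitochondrially encoded genes of T-like cells in genome order, and the lower panel the log2 ratio, CD45-KO over LatY136F, with its counting interval (black) and its range over 8 clusters (grey bars). mt-Co3 and mt-Nd3 lie below 0 over the whole of both ranges, while mt-Atp8 lies at 0.51.

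By complex, the mitochondrially encoded sums had log2 ratios of 0.11 for complex I, 0.12 for complex III, 0.15 for complex IV and 0.23 for complex V, each opposite in sign to its nuclear partner; with the mix of clusters held equal this did not hold for complex I, whose mitochondrial sum was then at -0.004, and at 0.01 to 0.02 with the mix held equal over the other 3 clusterings. The number of mitochondrial UMIs per nuclear subunit UMI followed. Over all complexes it was 8.47 in LatY136F and 10.9 in CD45-KO, a log2 ratio of 0.36. Complex IV stood at 15.6 and 21.2 mitochondrial UMIs per nuclear UMI (log2 ratio 0.44) and complex V at 2.91 and 3.97 (log2 ratio 0.45), ahead of complex III at 7.59 and 9.49 (log2 ratio 0.32) and complex I at 10.2 and 12.3 (log2 ratio 0.27). This ratio does not depend on the library total, and it was not taken with the mix of clusters held equal. UMI counts are not scaled by gene length, so levels are compared between libraries and not between genes or complexes.

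T cell states differed in their respiratory chain level within a library. The proliferating-like cluster, led by Ccna2, Hmmr, Nusap1 and Pclaf, had the highest nuclear share, 1.39% of its UMIs against 0.951% in the other T-like cells of LatY136F and 1.30% against 0.848% in CD45-KO. At least 1.2-fold higher there were 60 of 75 nuclear subunits in LatY136F, against 28% of all genes, and 60 of 75 in CD45-KO, against 36%. Complex V had the highest of the 5 nuclear log2 ratios in this cluster, 0.64 in LatY136F and 0.73 in CD45-KO, and complex III the lowest, 0.32 and 0.37. The mitochondrially encoded share was in turn lower, 7.65% against 8.75% in LatY136F and 7.83% against 9.57% in CD45-KO. These cells were deeper, with a median of 5820 and 6062 UMIs, and the part of depth in these shares was not tested.

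Tfh-like cells, led by Sostdc1 and Cxcr5, had nuclear shares of 1.17% in LatY136F and 1.05% in CD45-KO. In them 27 of 75 subunits were higher by 1.2-fold in LatY136F and 40 of 75 in CD45-KO, against 38.3% and 39.6% of all genes. At the low end was the unnamed cluster 1, led by Hs3st3b1, Selenop, Swap70 and Ifi208, with 0.846% and 0.809%. There 43 of 75 nuclear subunits were lower by 1.2-fold than in the other T-like cells of LatY136F, against 21.5% of all genes, and 24 of 75 in CD45-KO, against 22.4%.

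The libraries differed in how many cells they put into these states. The proliferating-like cluster held 739 cells of LatY136F and 193 of CD45-KO, and the 15 proliferation markers summed to 1748 and 733 CPM over T-like cells. Cluster 1 held 1101 and 6435 cells, and the unnamed cluster 2, led by F2rl2, Efna5, Pim2 and Dnase1l3, held 5647 and 779. Since each of clusters 1 and 2 came mostly from a single library, it may be that library and not a type. Without the proliferating-like cells the nuclear log2 ratio was -0.16. Lower by 1.2-fold were then 17 of 75 subunits, a share near the 20.9% of all genes with those cells included. Naive and quiescent markers summed to 3566 and 4598 CPM, and their part in the result was not tested.

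Within clusters the nuclear difference was smaller than over all T-like cells, and its direction was the same in all but the cytotoxic and NK-like cluster. Nuclear shares were lower in CD45-KO in 8 of the 8 clusters with at least 100 cells of both libraries, with log2 ratios of -0.16 to -0.06 and counting intervals below 0 in all 8. The Tfh-like cluster had a log2 ratio of -0.16 (1.17% in LatY136F and 1.05% in CD45-KO), the interferon response-like cluster, led by Ifit3 and Ifit1, one of -0.15 (0.916% and 0.825%), and the unnamed cluster 3, led by Il9r, Cpne7, Rora and Pparg, one of -0.13 (0.944% and 0.862%). The unnamed clusters 5, led by Egr2, Egr3 and Nr4a1, and 4, led by Pdzk1, Itgae and Cd7, had log2 ratios of -0.12 and -0.11, and the proliferating-like cluster one of -0.10. Clusters 1 and 2 were closest to 0, both at -0.06.

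Mitochondrially encoded shares were higher in CD45-KO in 7 of the 8, by log2 ratios of up to 0.13 in cluster 3 (8.82% and 9.63%), and lower in cluster 2 (8.47% and 8.22%, log2 ratio -0.04). Mitochondrial UMIs per nuclear UMI were higher in CD45-KO in all 8, from 5.49 and 6.04 in the proliferating-like cluster to 10.8 and 12.1 in cluster 1. The gap was smallest in cluster 2, which was nearly level at 8.81 in LatY136F and 8.91 in CD45-KO. The exception among T-like clusters was the cytotoxic and NK-like cluster, led by Ccl5 and Cd8a, with 73 and 90 cells. Its nuclear share was higher in CD45-KO, at 0.999% and 1.12% (log2 ratio 0.17, interval 0.09 to 0.25), and its mitochondrial share lower, at 9.35% and 8.54%. In the larger cluster given the same name at Leiden resolution 1.2, with 166 and 341 cells, the nuclear log2 ratio was 0.02. With an interval of -0.04 to 0.08, that nuclear difference was within counting error, and the mitochondrial log2 ratio there was -0.015.

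**Figure D3:**
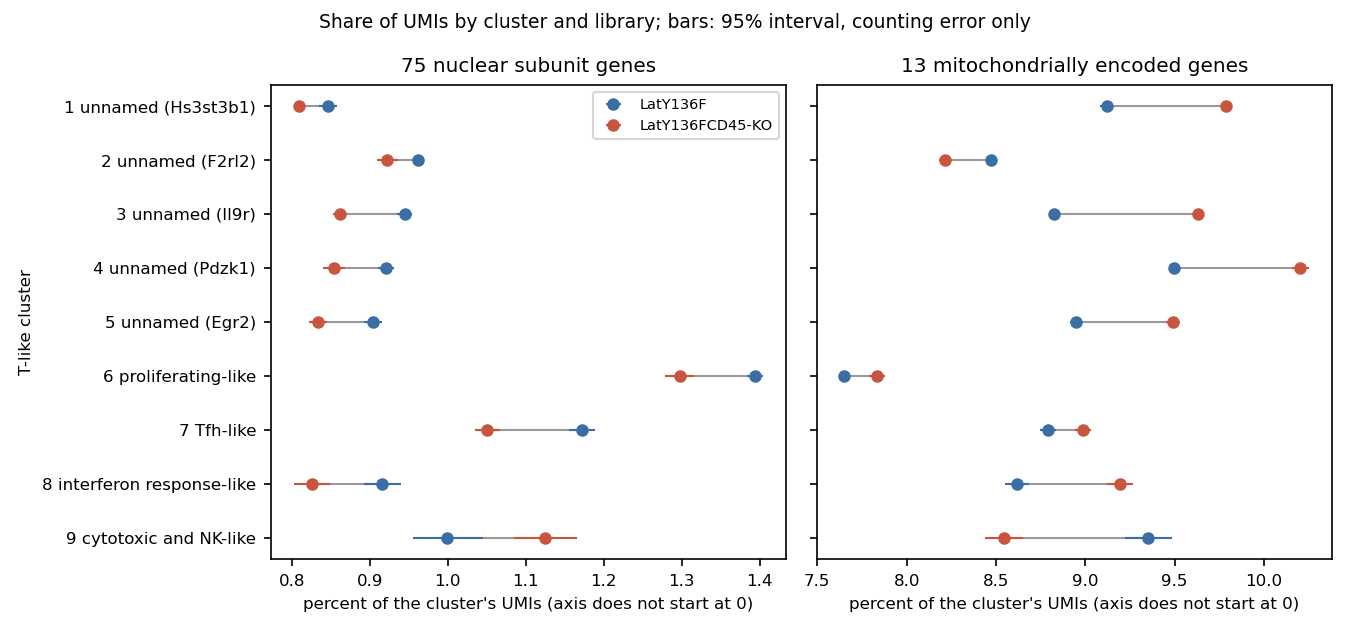
Points give the percent of a cluster's UMIs from the 75 nuclear subunit genes (left) and the 13 mitochondrially encoded genes (right) for each T-like cluster and library, with 95% counting intervals; the axes do not start at 0. The nuclear share is lower in CD45-KO in clusters 1 to 8 and higher in cluster 9, and the mitochondrial share is higher in CD45-KO except in clusters 2 and 9.

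Every nuclear complex was below 0 in each of the 8 clusters. Complex IV ranged from -0.24 in the Tfh-like and interferon response-like clusters to -0.07 in cluster 1, and complex V from -0.14 to -0.07. Complex III was nearly level in cluster 1 and in the interferon response-like cluster, both at -0.01, as was complex I in cluster 2, at -0.01. Among the mitochondrial sums complex V was above 0 in all 8, from 0.04 in cluster 2 to 0.21 in cluster 3 and in the interferon response-like cluster. The mitochondrially encoded sum of complex I lay between -0.15 in cluster 2 and 0.09 in cluster 3, and was -0.02 in the proliferating-like cluster. With the mix of clusters held equal the nuclear log2 ratios were -0.05 for complex I, -0.14 for complex II, -0.08 for complex III, -0.13 for complex IV and -0.09 for complex V, each but that of complex II smaller by over 1.5-fold than over all T-like cells. The mitochondrially encoded sums were then -0.004 for complex I, 0.07 for complex III, 0.09 for complex IV and 0.14 for complex V.

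**Figure D4:**
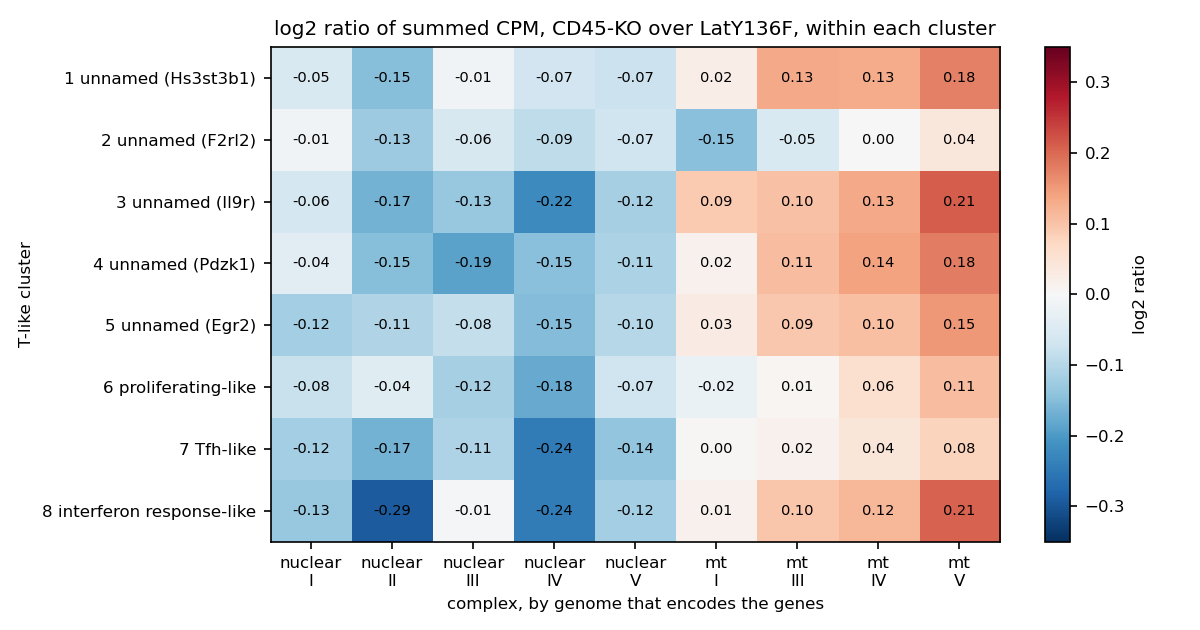
Each cell of the map is the log2 ratio of summed CPM, CD45-KO over LatY136F, for the nuclear or mitochondrially encoded (mt) genes of a complex within a T-like cluster; blue is lower and red higher in CD45-KO. The nuclear columns are below 0 in all 8 clusters, with nuclear IV at -0.24 in the Tfh-like cluster, and the mt V column is above 0 in all 8.

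Single subunits were not uniform across clusters. Below 0 were 47 of 75 in cluster 1, against 52.5% of all genes, 47 in cluster 2, against 48.4%, 63 in cluster 3, against 46.8%, and 49 in cluster 4, against 51.4%. In cluster 5 it was 57, against 51.4%, in cluster 6 57, against 46.6%, in cluster 7 58, against 47.4%, and in cluster 8 52 of 73, against 49.2%. The share of members exceeded that of all genes in each. Of 73 nuclear subunits with at least 20 UMIs in each of the 8 clusters, 18 were below 0 in all 8, against 9.06% of the 6741 genes with that count, and 1, Ndufv2, was above 0 in all 8, against 7.55%. The 18 were Ndufa1, Ndufa8, Ndufa9, Ndufb8, Ndufc1 and Ndufs1 of complex I, Sdhc and Sdhd of complex II, Uqcr10 of complex III, Cox5a, Cox6b1, Cox6c and Cox7c of complex IV, and Atp5g1, Atp5g3, Atp5j2, Atp5l and Atp5mpl of complex V. Cox7c had counting intervals below 0 in all 8 clusters, with log2 ratios of -0.62 to -0.18. Cox6b1 and Cox6c had such intervals in 6 of the 8, and Cox5a, with -0.60 to -0.20, and Uqcr10, with -0.72 to -0.14, in 4.

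Shares per cell gave the same picture as the sums. The median T-like cell had 0.930% of its UMIs from nuclear subunits in LatY136F and 0.825% in CD45-KO, and cells from the 25th to the 75th percentile lay at 0.755 to 1.12% and 0.668 to 0.989%, so that the libraries overlapped widely. For the mitochondrially encoded genes the medians were 8.59% and 9.42%. With cells split into 4 bins of UMIs, the nuclear log2 ratio was -0.13, -0.15, -0.15 and -0.22 from the shallowest to the deepest, and the mitochondrial one 0.08, 0.09, 0.14 and 0.18. The deepest bin, which held 4064 cells of LatY136F and 2551 of CD45-KO, had nuclear shares of 1.12% and 0.966%.

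Among the 12 members that are not subunits, the 8 Ndufaf genes, which help build complex I, summed to 166 CPM in LatY136F and 167 CPM in CD45-KO, a log2 ratio of 0.01 with an interval of -0.05 to 0.06, while 6 of the 8 were below 0 and their median was -0.13. Ndufaf4, an assembly factor of the membrane arm, stood at 39.5 and 50.1 CPM (log2 ratio 0.34, interval 0.23 to 0.45) and Ndufaf8, which had 1228 and 896 UMIs, had a log2 ratio of -0.15. Below 20 CPM, Ndufaf1 had a log2 ratio of 0.28 and Ndufaf5 one of -0.33. Cox7a2l, which joins complexes III and IV into supercomplexes, stood at 231 and 251 CPM (log2 ratio 0.12, interval 0.08 to 0.17), opposite to its paralog Cox7a2 at -0.34, and stayed at 0.15 with the mix of clusters held equal. Atp5s, a related protein of the ATP synthase, had a log2 ratio of 0.13 with an interval of -0.12 to 0.38. The testis isoform Cox6b2 had 57 UMIs in LatY136F and 17 in CD45-KO, and the muscle isoform Cox7a1 26 and 10, which is too few for a level.

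Other genes of the mitochondrion were counted from lists over all T-like cells, each set beside 47% of all genes below 0. None of these lists was taken with the mix of clusters held equal, so the part of the mix in their values was not tested. Cytochrome c, Cycs, stood at 89.5 CPM in LatY136F and 67.9 CPM in CD45-KO (log2 ratio -0.40), and Cyc1, the nuclear cytochrome of complex III, at 67.2 and 64.5 CPM (log2 ratio -0.06). Of the protein import, porin and membrane organisation genes 22 of 24 were below 0, with a median log2 ratio of -0.15, 7 lower and none higher by 1.2-fold, against 20.9% and 22.2% of all genes. Immt, which shapes the cristae where the chain sits, stood at 222 and 140 CPM (log2 ratio -0.66), the import pore Tomm40 had a log2 ratio of -0.46, the ADP/ATP carrier Slc25a4 one of -0.38 and the prohibitin Phb2, which organises the inner membrane, one of -0.33. Of the mitochondrial ribosome, which makes the 13 mitochondrially encoded proteins, 55 of 77 genes were below 0, with a median of -0.11, and 16 of 77 were lower by 1.2-fold, a share near the 20.9% of all genes. Mrpl57 stood lowest of those with at least 20 CPM, at 76.8 and 49.2 CPM (log2 ratio -0.64), followed by Mrpl18 at -0.54, Mrpl20 at -0.44 and Mrpl35 at -0.42.

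In the tricarboxylic acid cycle, which feeds complexes I and II, 11 of 14 genes were below 0, with a median of -0.13. Lower by 1.2-fold was 1 of the 14 and none was higher, against 20.9% and 22.2% of all genes. The isocitrate dehydrogenase Idh2 stood at 23.2 CPM in LatY136F and 13.4 CPM in CD45-KO (log2 ratio -0.79), while the citrate synthase Cs had a log2 ratio of -0.25 and Suclg1 one of -0.24. Assembly factors outside the Nduf series were split, with 23 of 44 below 0, 5 lower and 6 higher by 1.2-fold, against 20.9% and 22.2% of all genes. The copper chaperone Cox17, which supplies complex IV, stood at 131 and 85.5 CPM (log2 ratio -0.62), and Surf1, also of complex IV assembly, had a log2 ratio of -0.46, Fmc1 of ATP synthase assembly -0.45 and Cmc1 -0.34.

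Of the mitochondrial transcription and RNA handling genes 17 of 26 were above 0, with a median of 0.07. Higher by 1.2-fold were 6 of 26, a share near the 22.2% of all genes, and none was lower, against 20.9%. Trmt10c, a subunit of the mitochondrial RNase P, stood at 47.6 and 64.7 CPM (log2 ratio 0.44), Fastkd1, an RNA-binding protein of mitochondria, had a log2 ratio of 0.50, Mterf3 one of 0.35 and Lrpprc, which stabilises mitochondrial mRNA, one of -0.13. Of the 9 regulators of nuclear respiratory genes 7 were above 0. Myc stood at 34.6 CPM in LatY136F and 68.1 CPM in CD45-KO (log2 ratio 0.97, interval 0.87 to 1.08). Nrf1 had a log2 ratio of -0.18, and the GABP subunits Gabpb1 and Gabpb2 had -0.23 and 0.18.

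**Figure D5:**
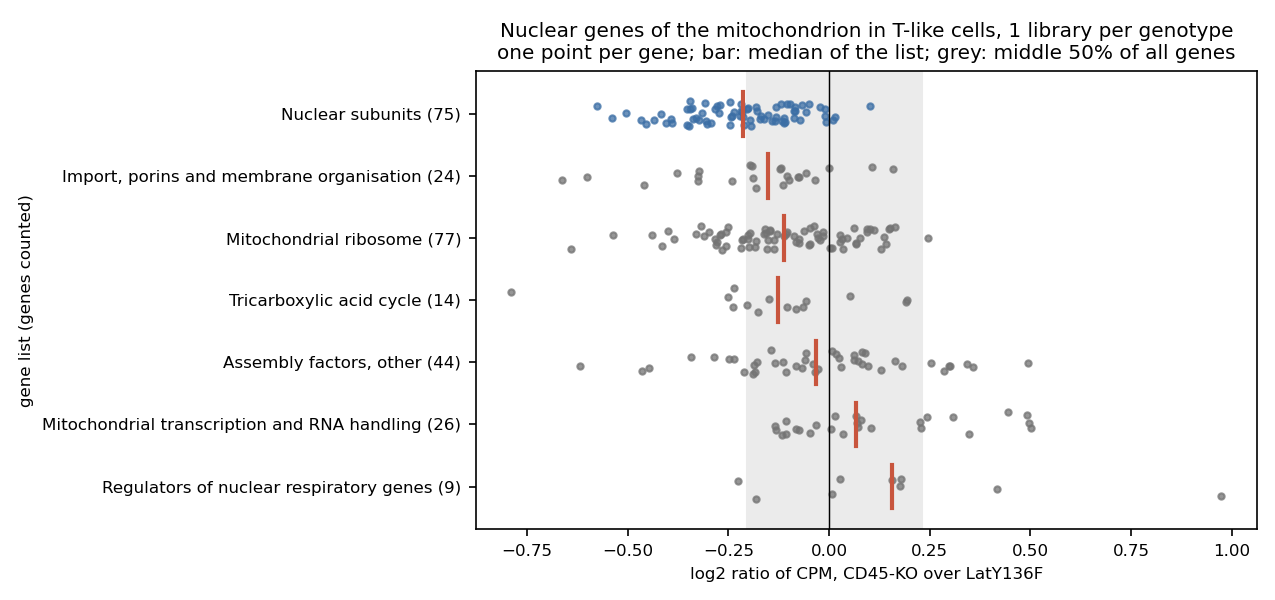
Each point is a gene of T-like cells on the axis of log2 ratio of CPM, CD45-KO over LatY136F, in the list named at the left with its number of genes; bars mark list medians and the grey band the middle 50% of all genes. The median of the nuclear subunits lies at -0.21, that of the import and porin list at -0.15 and that of the transcription and RNA handling list at 0.07.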

How the data were processed

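Deposited were tables of UMI counts per cell and gene, 1 per library, which the authors made with version 1.9.1 of the BD Rhapsody analysis pipeline on GRCm38 and GENCODE M19, per the file headers. The design text names pipeline version 2.0 and the submitters' processing notes name GRCm39, and the headers were followed. Gene positions come from the GENCODE annotation of GRCm38. Strand use in counting: not given in the sources used here.

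The filter on cells (200 or more genes, 25% or less mitochondrial counts) kept 13747 and 12834 and removed 28 and 11. Doublets were not called and were kept. Counts were clustered with scanpy 1.11.5 (2000 variable genes with the respiratory chain genes left out, 30 components, 15 neighbours, Leiden resolution 0.8). A cluster was named with at least 3 markers of a fixed list. UMIs were summed per library over T-like cells or per cluster and scaled to 1000000 (CPM). Log2 ratios are CD45-KO over LatY136F, with exact conditional binomial 95% intervals from scipy 1.17.1. The intervals were run on simulated Poisson counts, which checks the computation and not spread between cells or mice. With 1 library per genotype no test was made, and depth limits the precision of each value through its count.

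Genes are named as every mitochondrially encoded member, the up to 4 lowest and 2 highest nuclear subunits per complex with at least 20 CPM in a library ranked by the interval bound nearest 0, the paralog sets, the assembly factors with at least 20 CPM, and the up to 4 genes of each related list with the largest absolute ratio at that level. A gene of a related list that this rule names is not reported here. Ndufa6, Ndufab1, Ndufb10, Ndufs8, Ndufaf1, Ndufaf5 and Atp5s fall outside this rule, as do the genes on the same side of 0 in every cluster. They were named after their values were seen. The members and lists were chosen with earlier results of these data known. Alternatives varied the cell filters, the denominator, the scaling, the weight of cells, the depth per cell, the clustering and the mix of clusters. The alternatives that hold the mix equal under other clusterings or leave out proliferating-like cells or cells with shared labels were added after seeing the data.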

Additional observations from a re-analysis of the deposited data

How the results depend on the processing

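The nuclear log2 ratio of -0.22 kept its sign under every alternative run. It was -0.20 with cells of at most 10% mitochondrial counts, -0.21 with mitochondrial genes left out of the library total, -0.18 with ribosomal protein genes left out as well, -0.25 with median of ratios scaling, -0.18 with cells weighted equally and -0.18 with cells thinned to 1000 UMIs. It was -0.090 with the mix of clusters held equal and -0.11 with the mix held equal over clusters made with the nuclear members allowed. The mix held equal at Leiden resolution 0.4 gave -0.11 and at resolution 1.2 -0.11, and leaving out proliferating-like cells gave -0.16.

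The mitochondrial log2 ratio of 0.14 was, in the same order, 0.057, 0.16, 0.18, 0.11, 0.12 and 0.13, then 0.067, 0.090, 0.083, 0.080 and 0.13, and it was 0.13 with non-T cells included. The median over nuclear subunits was -0.16 with cells weighted equally, then -0.064, -0.093, -0.090, -0.080 and -0.16 for the mix and the proliferating-like cells. The count of subunits lower by 1.2-fold went from 28 of 75 to 6, 10, 9, 9 and 17. The share of all genes lower by 1.2-fold, 20.9% in the main setting, was not counted under these alternatives. The cause of these shifts was not tested.

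With the mix held equal the mitochondrially encoded sum of complex I was at -0.0042, and 15 of the 100 members changed sign, of which 1, Ndufs8, now at 0.021, had differed by 1.2-fold. The nuclear sums of all 5 complexes stayed below 0 under the 16 settings run. Clusters with a lower nuclear share were 8 of 8 in the main clustering and 9 of 9 with the nuclear members allowed. They were 6 of 6 at resolution 0.4 and 12 of 13 at 1.2. The remaining cluster at 1.2, named cytotoxic and NK-like, had 166 and 341 cells and a log2 ratio of 0.02 (interval -0.04 to 0.08). The mitochondrially encoded members were left out of every clustering. None of the nuclear members was among the variable genes when allowed, so that run did not test their part in the clusters. Doublets, free RNA and shared cell labels were not modelled. No paired analysis was possible because each genotype had 1 library.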
